A study of Mus musculus with 16 samples.

Results

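The comparison was between whole mouse epididymides taken on postnatal day 2 (pnd2) and on gestational day 16 (gd16). It used 6 of the 16 arrays of the series, chosen by the stage in their titles, and the 3 arrays of gestational day 18 (gd18) served as the stage between them. All 9 arrays held RNA of wild-type males of CD-1, an outbred mouse stock, and no treatment was named for any group. The labels placed gd16 at Theiler stage 24, gd18 at 26 and pnd2 at 27, gave these samples as not pooled, and the series' design text gave each as the paired organs of 1 animal, every animal from another dam. The organ was excised whole, so duct epithelium, mesenchyme, smooth muscle, vessels and blood all contributed RNA, which was amplified in 2 rounds and labelled with biotin for Affymetrix arrays. Replicates were numbered through the series, and values are given in the order 7, 8, 9 at gd16, 4, 5, 6 at gd18 and 1, 2, 3 at pnd2. The deposited value was a signal, an intensity on a linear scale with each array scaled to a common trimmed mean.

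The epididymis carries sperm from the testis and is where sperm gain motility. It forms from the Wolffian duct, which androgen from the fetal testis maintains, and around birth it is a duct of simple epithelium in mesenchyme that lengthens, begins to coil and gains a coat of smooth muscle. Its epithelium is known for secreting defensins, protease inhibitors, lipocalins and other proteins into the lumen. Birth lies between gd18 and pnd2, and with it placental supply of oxygen and nutrients ends and milk feeding starts.

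Pnd2 replicate 3 stood apart from the other 8 arrays. Its 3' over 5' signal ratio was 63.16 for Gapdh and 80.73 for Actb, against 5.01 to 7.18 and 2.404 to 4.02 elsewhere, and its median signal was 81.27 against 115.1 to 133.3. On it 36.3% of the genes tested differed 2-fold or more from the mean of its stage mates, against 13% or fewer on any other array. The fits were therefore made with and without that array, and counts of called genes are given for both. A gene said below to have risen or fallen with 9 arrays was called in the same direction in both. Pnd2 replicate 2 held skeletal muscle transcripts, with a summed signal of 4153.54 over 5 markers against 141.76 to 496.6 on the other arrays, and gd16 replicate 9 held Leydig cell transcripts, with 3431.87 over 4 markers against 141.33 to 482.67. With 1 animal per array, 3 arrays a stage limit the precision of every value.

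**Figure D1:**
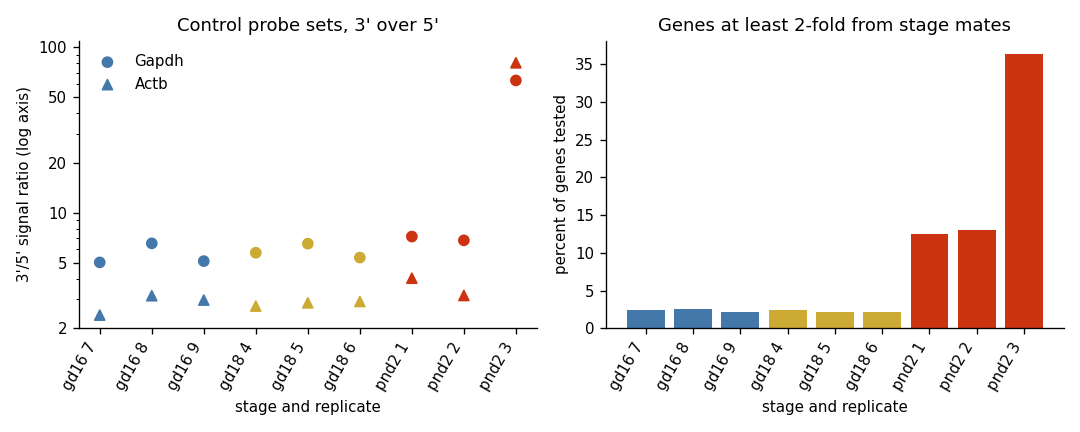
Left, ratio of 3' to 5' control signal for Gapdh (circles) and Actb (triangles) on each of the 9 arrays, log axis; right, percent of the 11580 genes at least 2-fold from the mean of the other 2 arrays of the stage. Pnd2 replicate 3 has ratios of 63.16 and 80.73 and 36.3% of genes away from its mates, and all other arrays have 13% or fewer.

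Between gd16 and pnd2, 543 of 11580 genes passed the test, 376 of them higher and 167 lower at pnd2, and 437 of the 543 differed by at least 2-fold. The test was limma's moderated comparison of log2(signal + 16) in 1 fit over the 9 arrays, and a gene is called where its Benjamini-Hochberg adjusted p over all genes was below 0.05. Calls higher made up 3.25% and calls lower 1.44% of all genes tested, which is the background for the gene groups below. Without pnd2 replicate 3 the calls came to 1158 higher (10%) and 735 lower (6.35%), and all 543 were among them. The 3 pnd2 arrays lay beyond the 3 gd16 arrays for every one of the 543, for 1812 genes higher (15.6% of all genes) and for 1531 lower (13.2%). The median log2 difference over all genes was -0.034 with the 9 arrays and 0.0276 without replicate 3. With each array centred on its median that figure became 0.221, and 85% rather than 69.2% of the calls were higher. The count fell to 148, 181 and 154 without gd16 replicate 7, 8 or 9, to 292, 280 and 287 without gd18 replicate 4, 5 or 6, and to 467 and 377 without pnd2 replicate 1 or 2. Without both pnd2 replicate 3 and gd16 replicate 9 it was 1370, with 516 of the 543 among them. Of 251 called genes with more than 1 kept probe set, 54 had one on the other side, and such values are given beside the genes described here that have one. In each value that follows, ± is the standard error of the log2 difference in the fit with 9 arrays and the adjusted p is from that fit unless stated.

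**Figure D2:**
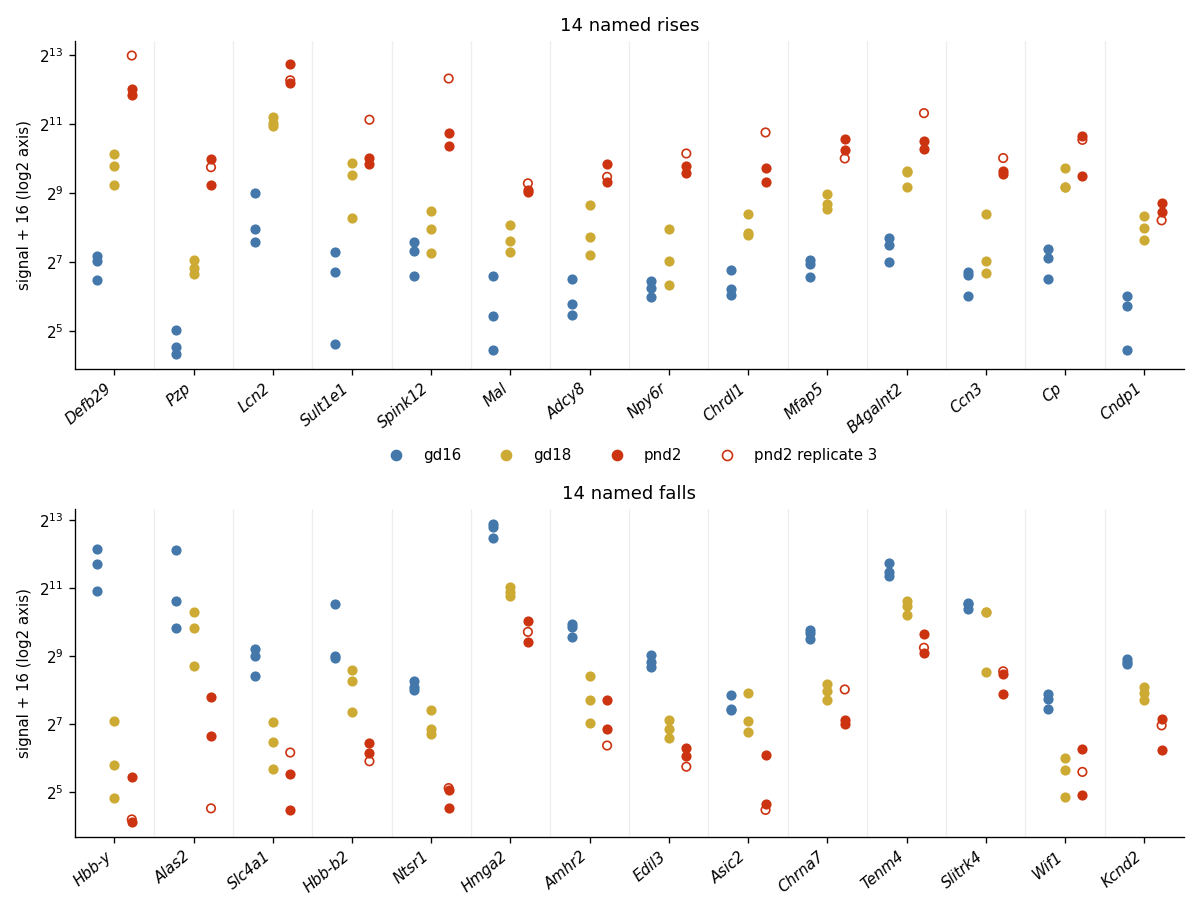
Signal plus 16 (log2 axis) on each array for the 14 rises and 14 falls ranked first by size among genes called with and without pnd2 replicate 3; filled points are gd16, gd18 and pnd2 and the open point is pnd2 replicate 3. Separate arrays were required for this ranking, so in all 28 genes the pnd2 points lie beyond the gd16 points. Defb29 is the top rise and Hbb-y, with pnd2 signals of 27.9 or less, the top fall.

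Genes of the secretory and defensive epithelium were among the largest rises. Of 16 measured genes on a list of 50 epididymal secreted proteins, 7 rose and 0 fell, with 10 higher and 0 lower without replicate 3, and the list's median log2 difference was 0.92. Among 9 measured of 42 antimicrobial peptide genes, 3 rose and 0 fell (3 and 0 without replicate 3, median 0.85 and 0.72). Of the 2 lists, 38 and 26 genes were on the array, and those below the array median on most arrays were dropped. A gene low at gd16, such as Defb1 below, was kept through its later arrays. The shares called are therefore no separate support for a rise of either group. In whole organs a larger share of cells of one type and more RNA per cell of that type cannot be told apart.
Defb29, a beta-defensin, had signals of 129, 115 and 73.0 at gd16, 585, 1110.5 and 868 at gd18 and 3699.9, 4095 and 8120.1 at pnd2. The stages did not overlap and each step was upward, with replicate 3 the highest of all. The log2 rise was 5.39 ± 0.36, adjusted p = 0.000291, or 41.9-fold, and 5.04 without replicate 3.
Lcn2, a lipocalin that binds iron carriers of bacteria, read 235, 497 and 177 at gd16, 2066, 1962 and 2347 at gd18 and 4626, 6803 and 4932 at pnd2. Its lowest pnd2 array stood above its highest gd18 array. The log2 rise was 4.21 ± 0.34, adjusted p = 0.000736.
Spink12, a Kazal-type protease inhibitor of the epididymis, read 175, 143 and 80.4 at gd16, 138, 340.3 and 234 at gd18 and 1311, 1691 and 5110.1 at pnd2. Here gd18 overlapped gd16 and only pnd2 stood apart. The log2 rise was 3.98 ± 0.52, adjusted p = 0.00458, and 3.40 without replicate 3, whose signal was the highest.
Wfdc15b, of the whey acidic protein family of protease inhibitors, rose by 3.31 ± 0.39 from 219, 291 and 206 to 1527, 1973 and 5036. Pzp, a broad protease trap related to alpha-2-macroglobulin, was near the floor of the array at gd16, with 7.35, 4.14 and 17.0, read 85.6, 98.8 and 117 at gd18 and reached 996, 585 and 847 at pnd2. Its log2 rise of 5.02 ± 0.32, adjusted p = 0.000291 depends on the added constant, since signals well below 16 map to nearly the same value. Rbp4, the plasma retinol carrier, clusterin (Clu), Rnase4 and cystatin C (Cst3) were the other called members, with log2 rises of 1.90, 1.14, 1.31 and 0.69. Ptgds and Spink8 were called only without replicate 3, at 1.25 and 1.34, and Npc2, a sterol-binding protein of epididymal fluid, had 20078, 17617 and 14896 at gd16 and 19124, 20610.1 and 21123 at pnd2 (log2 difference 0.22 ± 0.13, adjusted p = 0.337). Defb1, the other called defensin, rose by 2.37 ± 0.44, from 45.5, 43.8 and 21.9 at gd16 to 220.0, 165 and 433 at pnd2.

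Several other named rises encode enzymes and membrane proteins. Sult1e1, which sulphates estrogens and so inactivates them, read 139.8, 89.6 and 8.66 at gd16, 928, 292 and 726 at gd18 and 895, 1016 and 2224 at pnd2, a log2 rise of 4.11 ± 0.69, adjusted p = 0.013. Gd18 and pnd2 overlapped, and with only the 6 arrays compared its adjusted p was 0.0511. B4galnt2, a glycosyltransferase, rose by 3.31 ± 0.31, adjusted p = 0.00116, from 192, 166 and 111 through 785, 765 and 569 to 1219, 1459 and 2539.8, with no overlap between stages. Mal, a proteolipid of apical membrane traffic, rose by 3.64 ± 0.48 and reached 529, 508 and 608. Adcy8, a calcium-stimulated adenylyl cyclase, rose by 3.64 ± 0.41 and reached 629, 907 and 695. Npy6r, a receptor of the neuropeptide Y family, read 47.4, 71.1 and 59.5 at gd16, 64.6, 234 and 115 at gd18 and 754, 875 and 1120.2 at pnd2 (log2 rise 3.62 ± 0.39, adjusted p = 0.00192), so that gd18 partly overlapped gd16. Ceruloplasmin (Cp), a copper-carrying ferroxidase, rose by 3.22 ± 0.36 from 124, 75.6 and 150.3 to 699.7, 1589 and 1478, and the carnosine-splitting dipeptidase Cndp1 by 3.06 ± 0.42. Mt2, a metallothionein that binds zinc and copper, went from 989, 525 and 519 to 4785, 3447 and 5038 (2.73 ± 0.35, adjusted p = 0.00451). Rgn, a calcium-binding lactonase, went from 142, 267 and 240.0 to 1693, 1398 and 1174 (2.66 ± 0.26, adjusted p = 0.00128).

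Epithelial identity genes were among the rises. Of 39 measured of 51 genes for keratins, junctions and epithelial transcription factors, 13 were higher and 0 lower at pnd2, and 26 and 0 without replicate 3; the median log2 difference was 0.98 and 1.20. Ehf, an epithelial ETS factor, read 190.5, 307 and 229 at gd16, 747, 712 and 719 at gd18 and 1489, 1435 and 2469 at pnd2, a log2 rise of 2.79 ± 0.26, adjusted p = 0.00116. Its 3 stages were separate and in order. Epcam, an adhesion molecule of simple epithelia, read 2642, 3954 and 2598 at gd16, 6178, 6338 and 6485 at gd18 and 10246, 10275 and 6431 at pnd2 (rise 1.54 ± 0.23, adjusted p = 0.00781). On replicate 3 it lay within the gd18 range, and on the other pnd2 arrays above it. Adgrg2, an adhesion receptor of the efferent ducts and epididymis, rose by 1.89 ± 0.26, and the splicing factor Esrp1 by 1.94 ± 0.28. The desmosomal genes Dsg2, Dsp and Pkp2 rose by 1.60, 1.31 and 1.69, keratin 8 (Krt8) by 1.24, E-cadherin (Cdh1) by 1.75, the protease inhibitor Spint2 by 1.43 and claudin 8 (Cldn8) by 1.47. Trp63, the defining factor of basal cells, was 34.1, 46.1 and 41.6 at gd16 and 53.9, 48.8 and 44.4 at gd18, and 267, 172 and 252 at pnd2 (2.10 ± 0.30, adjusted p = 0.00625). It was the called gene in both fits among 5 measured of 12 basal cell genes. Trp63 lay below the array median on every gd16 and gd18 array, so it passed the filter through its pnd2 arrays alone. Its share of this list is therefore no separate support for a rise of basal cell genes. Of 20 measured genes for luminal water, ion and acid transport 0 were called with 9 arrays, and 3 were higher and 2 lower without replicate 3. Of 6 measured ciliated cell genes 0 were called, and 1 was higher without replicate 3. Summed over 5 measured epithelial markers, the signal was 7013.52 to 9800.55 at gd16, 12887.27 to 13235.52 at gd18 and 16815.16 to 22134.71 at pnd2. Epcam was the largest part of each sum, and Pax8, another of the 5, was not called (log2 difference -0.10, adjusted p = 0.851 by limma). The sum moved with the secretory genes above, and its part in their rise was not tested.

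Of 14 measured hedgehog genes 2 rose and 0 fell, with and without replicate 3, and the list's median was -0.26 and -0.24. Shh, a ligand made by duct epithelium, read 1205, 2089 and 1657 at gd16, 2669.6, 4575 and 2424 at gd18 and 5635, 6753 and 11571 at pnd2, a rise of 2.23 ± 0.34, adjusted p = 0.00813. Its target and inhibitor Hhip, which the responding mesenchyme makes, rose from 235, 582 and 464 to 2524, 1866 and 4541 (2.75 ± 0.41, adjusted p = 0.00769). Of 34 measured FGF, EGF and HGF signalling genes 2 rose and 1 fell (7 and 2 without replicate 3, median 0.11 and 0.0756). Met, the receptor for hepatocyte growth factor, rose by 2.03 ± 0.24 from 535, 849.5 and 626 to 2459, 2329 and 3569, while its ligand Hgf fell from 186, 212 and 288 to 62.2, 90.3 and 10 (-2.01 ± 0.48, adjusted p = 0.0472). Pdgfa, an epithelial ligand for mesenchymal receptors, rose by 1.62 ± 0.23.

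Smooth muscle and connective tissue genes were also among the rises. Of 22 measured smooth muscle contractile genes of 28, 6 rose and 0 fell, and 11 were higher and 1 lower without replicate 3; the median log2 difference was 0.79 and 0.99. Myh11, the smooth muscle myosin heavy chain, read 109, 431 and 244 at gd16, 871, 1395 and 1003 at gd18 and 1548, 1955 and 893 at pnd2. The gd16 arrays were the lowest, and the pnd2 range enclosed 2 of the 3 gd18 arrays. Its log2 rise was 2.53 ± 0.46, adjusted p = 0.018. Acta2, smooth muscle actin, read 17872, 20908 and 18189.8 at gd16, 31781, 29772 and 32009 at gd18 and 38629, 40144 and 39464 at pnd2, with every stage separate and a rise of 1.06 ± 0.10, adjusted p = 0.00116. Actg2, Synpo2, Tpm2 and Mylk rose by 2.08, 2.19, 1.62 and 0.90, and a second Mylk probe set gave -0.47. The calponin gene Cnn1 and Tagln were called only without replicate 3, at 3.69 and 1.59, and on that array they read 105.08 and 970.39 against at least 770.23 and 6213.32 on the other pnd2 arrays.

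In the matrix, 8 of 39 measured leucine-rich proteoglycans and related proteins rose and 0 fell (16 and 2 without replicate 3, median 0.14 and 0.37). Fmod, fibromodulin, which binds collagen fibrils, read 1185, 1258 and 1138 at gd16, 2233, 2873 and 2294 at gd18 and 3654, 5459.5 and 5383 at pnd2 (1.98 ± 0.20, adjusted p = 0.00157). Its stages were in order without overlap. Osteoglycin (Ogn), dermatopontin (Dpt), asporin (Aspn), periostin (Postn), thrombospondin 2 (Thbs2), the laminin chain gene Lama2 and Vit rose by 2.01, 3.19, 1.95, 1.58, 2.05, 1.26 and 2.65. Among 18 elastic fibre and microfibril genes 5 rose and 0 fell (7 and 1 without replicate 3, median 0.0356 and 0.22). Mfap5, a glycoprotein of microfibrils, read 79.0, 106 and 117 at gd16, 356, 489.7 and 397 at gd18 and 1204, 1507 and 1012 at pnd2 (3.42 ± 0.24, adjusted p = 0.000291). All 3 stages were apart. Of 29 collagen genes 4 rose and 1 fell (6 and 4 without replicate 3). Col1a1, the main chain of fibrillar collagen I, rose by 1.18 ± 0.16 from 5156, 7058 and 6338 to 11919, 15075 and 15070.3. Col8a1, a short-chain collagen, read 1215, 1339 and 934 at gd16, 1549, 908 and 1196 at gd18 and 421, 318 and 428 at pnd2, a fall of 1.54 ± 0.25 on the log2 scale with an adjusted p of 0.0117. The matricellular protein gene Ccn3 rose by 3.29 ± 0.43, adjusted p = 0.0046, from 87.9, 48.1 and 83.7 at gd16 and 321, 86.1 and 114 at gd18 to 785, 731 and 1021. Summed over 5 smooth muscle markers the signal was 20368.63 to 24116.09 at gd16, 37165 to 38539.56 at gd18 and 42001.12 to 50813.82 at pnd2. Acta2 made up most of each sum.

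**Figure D3:**
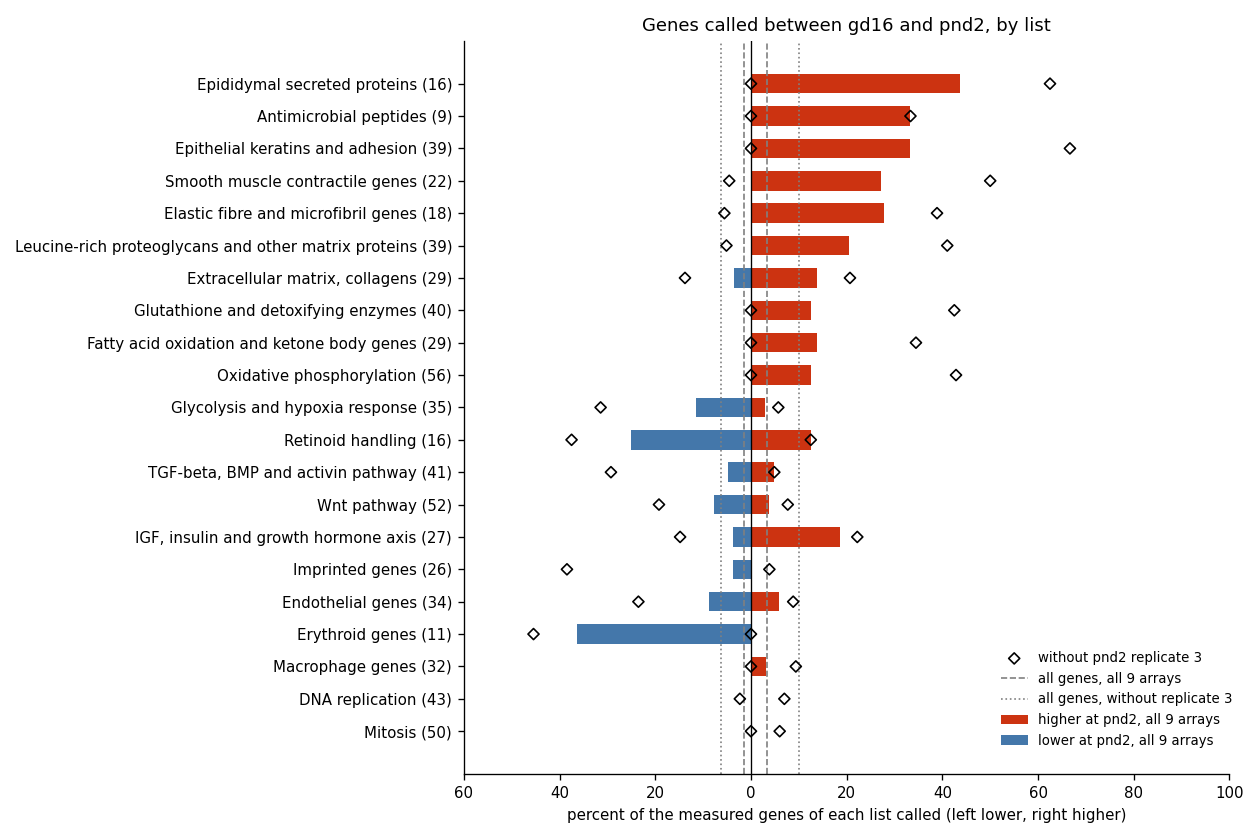
For 21 gene lists (measured genes in brackets), percent of the measured genes called higher (right, red) or lower (left, blue) at pnd2 than at gd16 with all 9 arrays; diamonds are the same without pnd2 replicate 3, and dashed and dotted lines give the share of all genes under each. Epithelial, muscle and matrix lists extend to the right of 3.25%. The erythroid list extends only to the left, and the retinoid list both ways. The collagen, glycolysis, TGF-beta, Wnt, growth axis, imprinted and endothelial lists also pass 1.44% on the left. Part of the erythroid falls passed the filter through their gd16 arrays alone.

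Some enzymes of detoxification rose. Of 40 measured glutathione and detoxifying enzyme genes 5 were higher and 0 lower with 9 arrays, and 17 and 0 without replicate 3 (median 0.52 and 0.68). Aldh1a1, an aldehyde dehydrogenase that makes retinoic acid and clears aldehydes, read 1039, 1293 and 2481 at gd16, 5292, 4420.2 and 4137 at gd18 and 11471, 12286 and 16035 at pnd2. Every array of a later stage exceeded every array of the stage before. The rise was 3.12 ± 0.30, adjusted p = 0.00121. Maob, a mitochondrial monoamine oxidase, read 765, 671 and 555 at gd16, 2230.4, 2898 and 3616 at gd18 and 3555, 4034 and 3468 at pnd2 (2.45 ± 0.22, adjusted p = 0.000965). Its gd18 and pnd2 ranges overlapped. Fmo1, a flavin monooxygenase, rose by 2.38 ± 0.20, adjusted p = 0.000803, and Gstm7 by 2.21 ± 0.32, Gstm7 being one of a family of near-identical genes whose probes may read each other; another Gstm7 probe set gave -0.81.

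The called genes of mitochondrial respiration all rose, by small amounts. Of 56 measured oxidative phosphorylation genes 7 rose and 0 fell with 9 arrays, and 24 and 0 without replicate 3. The 3 pnd2 arrays lay above the 3 gd16 arrays for 36 genes and below for 0, against 15.6% and 13.2% of all genes. With arrays centred on their medians the 9-array rises numbered 2, and 29 without replicate 3, and with quantile normalization 5 and 18. The median log2 difference was 0.45 and 0.36, and without replicate 3 it was 0.085 between gd16 and gd18 and 0.28 between gd18 and pnd2. Cytochrome c (Cycs) read 5153, 5450.0 and 5553 at gd16, 5387, 6452 and 4557 at gd18 and 8286, 9009.9 and 14179 at pnd2, with gd18 overlapping gd16 (0.92 ± 0.22, adjusted p = 0.0456). Ndufa1 and Ndufb7 of complex I rose by 0.70 and 0.69, Cox4i1 of complex IV by 0.66 and Cox5b by 0.57, where another Cox5b probe set gave -0.21. Fatty acid oxidation gave 4 higher and 0 lower of 29 measured genes (10 and 0 without replicate 3, median 0.45 and 0.35). Acaa2, the thiolase that ends each cycle, went from 2262, 1959.7 and 2102 to 4125, 4269.6 and 6918 (1.23 ± 0.23, adjusted p = 0.019), and its other probe sets gave 0.51 and -0.81. Slc25a20, the carnitine carrier, and Hadh rose by 1.11 and 0.68.

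Glycolytic and hypoxia-responsive genes gave calls in both directions. Of 35 measured genes, 1 rose and 4 fell between gd16 and pnd2 with 9 arrays, 2 and 11 without replicate 3. With arrays centred on their medians the 9-array falls numbered 1, and 10 without replicate 3. The list's median log2 difference was -0.66 and -0.41. Without replicate 3 it was 0.32 between gd16 and gd18 and -0.69 between gd18 and pnd2, against 0.0176 and 0.00942 over all genes. Calls between gd18 and pnd2 without replicate 3 made up 1.15% of all genes higher and 1.16% lower, and 0 of the 35 were called higher and 14 lower. With 9 arrays that step had 0 calls over all genes by limma, with 1499 at an unadjusted p below 0.05. Ldha, the muscle-type lactate dehydrogenase chain, read 13477, 19916 and 15241 at gd16, 18524, 18354 and 18190.1 at gd18 and 9827, 6558 and 3265 at pnd2. Gd16 and gd18 overlapped and all pnd2 arrays were below both. It fell by 1.42 ± 0.34 (adjusted p = 0.0445), and by 0.99 without replicate 3, its lowest array. Slc2a3, a glucose transporter, read 1597, 1587 and 1225 at gd16, 1471, 1098 and 1661 at gd18 and 711, 717 and 677 at pnd2 (-1.04 ± 0.21, adjusted p = 0.0269). Ak4, a mitochondrial adenylate kinase, read 809, 917 and 569 at gd16, 669.6, 830.0 and 698 at gd18 and 324, 204 and 353 at pnd2 (-1.34 ± 0.27, adjusted p = 0.0257), and Pgam1, of lower glycolysis, 5622, 7627 and 5078 at gd16, 6506, 6379 and 7533 at gd18 and 3663, 3216 and 3161 at pnd2 (-0.85 ± 0.18, adjusted p = 0.0337). Ankrd37 read 369, 329 and 235 at gd16, 475, 447 and 750.0 at gd18 and 145, 117 and 168 at pnd2 (-1.03 ± 0.28, adjusted p = 0.0712), and its call was made only without replicate 3, at -1.14 with an adjusted p of 0.0143. The group's called rise was Adm, adrenomedullin, a vasodilator peptide, which is described with the genes of unequal steps.

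Hypoxia-inducible factors are known to bind a core of ACGTG. The 250 bases before the start site are printed for 3 of the falling genes and for Ankrd37, because 14 of the 35 measured members were called lower and 0 higher between gd18 and pnd2 without replicate 3. Sequences are from RefSeq, build GRCm38.p6, 5′ to 3′ on the gene's strand, at the most upstream start listed, with capitals for ACGTG or its reverse complement CACGT (the palindrome CACGTG holds both).
Ldha, chr7:46845554-46845803, plus strand: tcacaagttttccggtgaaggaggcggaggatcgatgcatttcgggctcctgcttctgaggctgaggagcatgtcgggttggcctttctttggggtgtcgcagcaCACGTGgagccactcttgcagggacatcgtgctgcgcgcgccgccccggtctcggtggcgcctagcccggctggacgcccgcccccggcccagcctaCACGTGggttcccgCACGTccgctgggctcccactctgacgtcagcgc
Pgam1, chr19:41911621-41911870, plus strand: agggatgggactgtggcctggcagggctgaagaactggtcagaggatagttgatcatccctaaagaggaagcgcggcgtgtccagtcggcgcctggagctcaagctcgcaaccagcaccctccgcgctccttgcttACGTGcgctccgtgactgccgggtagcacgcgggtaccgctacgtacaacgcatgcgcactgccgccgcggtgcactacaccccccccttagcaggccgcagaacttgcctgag
Ak4, chr4:101419039-101419288, plus strand: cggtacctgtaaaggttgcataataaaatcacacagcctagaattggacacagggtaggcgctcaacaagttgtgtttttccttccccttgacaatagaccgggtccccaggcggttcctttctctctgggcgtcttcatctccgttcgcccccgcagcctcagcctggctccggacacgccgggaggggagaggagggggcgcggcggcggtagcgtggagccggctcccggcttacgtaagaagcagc
Ankrd37, chr8:45999851-46000100, minus strand: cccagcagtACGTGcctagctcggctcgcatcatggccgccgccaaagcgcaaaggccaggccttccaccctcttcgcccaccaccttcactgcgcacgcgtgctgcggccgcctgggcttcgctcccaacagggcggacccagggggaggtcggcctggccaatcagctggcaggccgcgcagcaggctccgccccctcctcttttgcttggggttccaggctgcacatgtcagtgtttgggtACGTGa
The letters occurred in 3 stretches before Ldha, 1 before Pgam1, 2 before Ankrd37 and 0 in this window of Ak4. A promoter was listed for 32 of the 35 measured genes, and 17 of these (53.1%) held the letters. Of the 11 genes lower at pnd2 than at gd16 without replicate 3, 10 had a listed promoter, and 6 of those held the letters. The letters were not counted for the 14 genes lower between gd18 and pnd2 as a set. Among all 27025 genes with a listed promoter the share was 16.5%, and among the 9329 of them tested here 22.1%. The list was gathered from known glycolytic and hypoxia-responsive genes, so its higher share may follow from how it was chosen. It says nothing about the fall. A match describes the letters and is no evidence that a factor binds there.

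Red cell genes were among the largest falls. Of 11 measured erythroid genes 0 rose and 4 fell (0 and 5 without replicate 3, median -0.75 and -0.55). Hbb-y, the embryonic beta-type globin of primitive red cells, read 4534, 3323 and 1908 at gd16, 12.5, 121 and 40.1 at gd18 and 1.32, 27.9 and 2.32 at pnd2. Gd18 and pnd2 overlapped, far below all gd16 arrays. The log2 fall was 7 ± 0.60 (adjusted p = 0.000803). Slc4a1, the anion exchanger of the red cell membrane, read 573, 499.5 and 328 at gd16, 73.5, 119 and 35.0 at gd18 and 6.40, 30.6 and 55.7 at pnd2 (-3.48 ± 0.50, adjusted p = 0.00699), with all gd18 and pnd2 arrays below gd16. Hbb-y and Slc4a1 lay below the array median on every gd18 and pnd2 array, so they passed the filter through their gd16 arrays alone. The share of the erythroid list called is therefore no separate support for a fall of red cell genes. Alas2, which starts haem synthesis in red cell precursors, read 4462, 1553 and 897 at gd16, 1239, 888 and 401 at gd18 and 205, 85.3 and 6.95 at pnd2 (-4.54 ± 0.84, adjusted p = 0.0189), and gd16 replicate 7 was by far its highest array. Its call was lost without gd16 replicate 7 or 8 and with only the 6 arrays compared, with an adjusted p over all alternatives of at most 0.0842. Hbb-b2, an adult beta globin, fell by 3.33 ± 0.47, but its probe set can read related globins and another probe set listed for it gave -0.17. How much blood each dissected organ held is not recorded, and its part in these falls was not tested.

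Endothelial genes moved both ways. Of 34 measured, 2 rose and 3 fell with 9 arrays, and 3 and 8 without replicate 3 (median -0.51 and -0.30). Flt1, a receptor for vascular endothelial growth factor, read 545, 511 and 422 at gd16, 592, 602 and 632 at gd18 and 191, 199 and 146 at pnd2. It was slightly above gd16 on every gd18 array and well below on every pnd2 array. The fall was 1.39 ± 0.21 (adjusted p = 0.00781). The adhesion gene Icam2 and the factor Ets1 fell by 1.43 and 1.34. Lyve1, a hyaluronan receptor of lymphatic endothelium and some macrophages, rose from 177, 312 and 298 to 833, 969 and 1649.7 (2.04 ± 0.32, adjusted p = 0.0102), and caveolin 1 (Cav1), which muscle and fat also express, by 1.60 ± 0.25. Over 5 endothelial markers the summed signal was 5030.26 to 6010.89 at gd16, 4148.97 to 5258.03 at gd18 and 1511.23 to 3346.81 at pnd2. Kdr was the largest part of each sum, and it was called only without replicate 3 (adjusted p = 0.00321 by limma). Pecam1, Cdh5, Tek and Emcn were not called there, with adjusted p of 0.954, 0.435, 0.0702 and 0.194. The part of vessel content in these falls was not tested. Among 32 measured macrophage genes 1 rose and 0 fell (3 and 0 without replicate 3).

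Of 35 measured Wolffian duct and mesonephros regulators 1 rose and 3 fell with 9 arrays, and 4 and 5 without replicate 3. Of 12 measured oncofetal genes 0 rose and 3 fell with 9 arrays, and 0 and 5 without replicate 3 (median -0.51 and -0.27). Hmga2, a chromatin protein of fetal and stem cells, read 7658, 5748 and 7131 at gd16, 2089, 1885 and 1717 at gd18 and 1041, 664 and 825 at pnd2. No stage overlapped another. The log2 fall was 3.01 ± 0.21 (adjusted p = 0.000291), or 8.06-fold. Amhr2, the receptor through which anti-Müllerian hormone removes the female duct in males, read 736, 913 and 965 at gd16, 324, 192 and 116 at gd18 and 99.5, 192 and 66.7 at pnd2 (-2.81 ± 0.41, adjusted p = 0.00757). Gd18 and pnd2 overlapped, below all gd16 arrays. Eya1, a transcriptional partner in kidney and duct development, fell from 489, 394 and 568 to 97.0, 134 and 85.1 (-2.05 ± 0.33, adjusted p = 0.0104). Wt1, of the mesonephric mesenchyme and mesothelium, fell by 1.09 ± 0.20 and Bnc1, of mesothelium, by 1.51 ± 0.25. Of 20 measured mesothelium genes 2 rose and 3 fell (4 and 7 without replicate 3, median -0.49 and -0.34), and Msln, mesothelin, was called higher without replicate 3, at 1.38 with an adjusted p of 0.00777. Summed over 5 mesothelium markers, Bnc1 among them, the signal was 4276.03 to 5639.3 at gd16, 4567.58 to 6056.32 at gd18 and 1983.08 to 3907.86 at pnd2, and its part in the falls of Wt1, Bnc1 and Aldh1a2 was not tested. Lhx1, a Wolffian duct homeobox gene, rose by 1.88 ± 0.43, from 251, 256 and 205 to 537, 867 and 1604.

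In the Wnt and TGF-beta pathways, falls outnumbered rises without replicate 3. For Wnt, 2 of 52 measured genes rose and 4 fell with 9 arrays, and 4 and 10 without replicate 3 (median -0.29 and -0.24). The ligand Wnt4 fell by 1.63 ± 0.34, from 1209.8, 1675 and 1707 at gd16 and 758, 726 and 859 at gd18 to 617, 684 and 257. The receptors Ror1 and Ror2 fell by 1.42 and 1.44, the frizzled receptor Fzd6 rose by 1.43, and the target gene Sp5 by 1.15. Wif1, which binds and blocks Wnts, read 199, 157 and 221 at gd16, 48.7, 33.9 and 12.9 at gd18 and 14.0, 61.3 and 32.3 at pnd2 (-2.10 ± 0.45, adjusted p = 0.0342), so its low level was already there at gd18. Its call was lost under 9 of 22 alternatives, among them leaving out any one gd16 array, pnd2 replicate 1, gd18 replicate 5, or pnd2 replicate 3 with gd16 replicate 9, using only the 6 arrays compared, and a constant of 1, with an adjusted p over all alternatives of at most 0.136. For TGF-beta, BMP and activin, 2 of 41 rose and 2 fell, and 2 and 12 without replicate 3 (median -0.43 and -0.14). Chrdl1, a secreted BMP antagonist, read 50.4, 93.1 and 58.8 at gd16, 212, 321 and 204 at gd18 and 621, 824 and 1718 at pnd2, a rise of 3.58 ± 0.39, adjusted p = 0.00192 with separate stages. Bmper, another BMP-binding protein, fell from 1431, 1149.7 and 1363 to 453, 487 and 482 (-1.44 ± 0.19, adjusted p = 0.00527), and the receptor Bmpr1b rose by 1.41 ± 0.23. Tgfb2 was 3497, 4067 and 3037 at gd16 and 1534, 1570.0 and 369 at pnd2, and was called only without replicate 3, at -1.17 with an adjusted p of 0.000429.

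Retinoid handling changed in both directions. Of 16 measured genes 2 rose and 4 fell with 9 arrays, and 2 and 6 without replicate 3 (median -0.94 and -0.44). Aldh1a2, the retinoic acid synthase of fetal mesenchyme and mesothelium, read 9810.1, 8965 and 9460.4 at gd16, 6660.3, 5849.9 and 7247 at gd18 and 4306, 4648 and 4621 at pnd2, a fall of 1.05 ± 0.14 with an adjusted p of 0.00451. Its order was the reverse of that of Aldh1a1, with every stage separate. The receptor Rarb, the binding protein Crabp1 and the retinol dehydrogenase Rdh10 fell by 1.66, 1.94 and 0.98, and Rbp4 and Aldh1a1 were the rises.

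Of 27 measured growth axis genes 5 rose and 1 fell with 9 arrays, and 6 and 4 without replicate 3. Socs2, a feedback inhibitor of growth hormone signalling, read 222, 193 and 261 at gd16, 1036, 1215 and 1198 at gd18 and 1173, 1128 and 2014 at pnd2 (2.55 ± 0.25, adjusted p = 0.00128). Igfbp7 and the protease Htra1 rose by 2.20 and 1.72, and Igfbp3 fell by 0.88. Of 26 measured imprinted genes, many of which are known to drive fetal growth, 0 rose and 1 fell with 9 arrays, and 1 rose and 10 fell without replicate 3 (median -0.54 and -0.39). Dlk1, a membrane ligand of fetal tissues, read 8629, 7693 and 7537 at gd16, 7916, 8635 and 8866 at gd18 and 5045, 3769 and 2219 at pnd2 and fell by 1.19 ± 0.26 (adjusted p = 0.0355), although a second probe set listed for it gave 0.73. Igf2, the fetal growth factor, read 23381, 22614 and 19235 at gd16, 19484, 18605 and 19256 at gd18 and 13248, 13247 and 1313 at pnd2. The first 2 pnd2 arrays were both below gd16 and gd18, and replicate 3 was far below them. Its log2 difference was -1.82 ± 0.73 with an adjusted p of 0.19 with 9 arrays, and -0.71 with 0.00107 without replicate 3.

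Among the other named falls, Ntsr1, a neurotensin receptor, read 239, 294 and 257 at gd16, 88.8, 99.4 and 156 at gd18 and 7.34, 17.3 and 18.7 at pnd2 (-3.21 ± 0.32, adjusted p = 0.00128). Chrna7, a nicotinic receptor subunit, fell by 2.27 ± 0.30, and the potassium channel gene Kcnd2 by 2.05 ± 0.28. Tenm4, a large transmembrane protein of cell contacts, read 3417, 2827 and 2592 at gd16, 1567, 1169.7 and 1409 at gd18 and 526, 792 and 592 at pnd2 (-2.19 ± 0.22, adjusted p = 0.00128), one stage below another without overlap. Edil3, a matrix ligand of integrins, fell by 2.81, Ndnf by 2.00, and Sned1 by 1.86. Slitrk4, Asic2, Prmt8, Tac2 and Ankrd34a fell by 2.18, 2.49, 2.32, 1.81 and 1.83, and each of these 5 lost its call without any one of the 3 gd16 arrays, among other settings, with limma adjusted p over all alternatives of at most 0.109, 0.0945, 0.0628, 0.117 and 0.145. Of 16 measured nerve and Schwann cell genes 1 rose, the neuropeptide gene Npy, and 1 fell, Stmn2, and without replicate 3 the counts were 2 and 2.

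The lists for DNA replication, mitosis and steroid receptors gave no calls with 9 arrays. For DNA replication 0 of 43 measured genes were called, at a median of 0.00974, and 3 were higher and 1 lower without replicate 3. For mitosis 0 of 50 were called, at a median of 0.18, and 3 were higher without replicate 3. Of 19 measured cell cycle brakes 1 rose, the kinase inhibitor gene Cdkn2c (by 1.05 ± 0.18), and 0 fell, with 4 and 2 without replicate 3. Mki67, a marker of dividing cells, read 7814, 11053 and 9797 at gd16, 9464, 9225 and 8159 at gd18 and 11607, 7471 and 14429 at pnd2, and the stages overlapped. Of 16 measured steroid receptor and androgen metabolism genes 0 were called, and 1 was without replicate 3. Of 14 measured androgen response genes, 1 rose and 3 fell with 9 arrays, and 1 and 4 without replicate 3 (median 0.04 and -0.12). Esr1, the estrogen receptor, read 7188, 8139 and 6409.6 at gd16, 8429, 6229.7 and 8502 at gd18 and 5779.6, 10618 and 6444 at pnd2, with overlap throughout (0.03 ± 0.24, adjusted p = 0.959). Nr3c1, the glucocorticoid receptor, had a log2 difference of 0.41 ± 0.22, adjusted p = 0.298. Of 27 genes known to respond to glucocorticoids, 7 rose and 0 fell with 9 arrays, and 9 and 2 without replicate 3 (median 0.26 and 0.32). The rises held Lcn2, Adm, Mt2 and Mt1, the last from 361, 189 and 289 to 950.2, 833 and 3640.2 (2.33 ± 0.50, adjusted p = 0.0348). Glul, glutamine synthetase, and Nfkbia, an inhibitor of NF-kappa B, rose by 1.01 and 0.85.

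Gd18 divided the change into a step before birth and a step that spans it, and the steps need not cover equal times. Between gd16 and gd18, 11 genes were called higher (0.095% of all genes) and 3 lower (0.0259%) with 9 arrays, and 263 (2.27%) and 62 (0.535%) without pnd2 replicate 3, whose spread enters every comparison of the joint fit. Between gd18 and pnd2, limma called 0 genes with 9 arrays, with 1499 at an unadjusted p below 0.05, and 133 higher and 134 lower without replicate 3. For the 543 genes called between gd16 and pnd2, the steps were read from the fit without replicate 3. The step before birth alone was called in the same direction for 154 (131 rises, 23 falls), the step across birth alone for 91 (44 rises, 47 falls), both steps for 34 (24 rises, 10 falls) and neither for 264 (177 rises, 87 falls). By gd18 the rises had covered a median of 54.2% of their change (quartiles 39.6% and 68.5%) and the falls 39.2% (19.8% and 57.1%). Fewer than 25% had been covered by 45 of 376 rises and 48 of 167 falls, and more than 75% by 72 rises and 11 falls. Single arrays moved these counts: calls between gd16 and gd18 were 2, 2 and 0 without gd18 replicate 4, 5 or 6, 1, 3 and 0 without gd16 replicate 7, 8 or 9, and 10 and 9 without pnd2 replicate 1 or 2. For the timing classes the steps also left out pnd2 replicate 3. Leaving out pnd2 replicate 1 or 2 as well keeps 1 pnd2 array, and those counts are not given. With a gd16 or gd18 array left out, the class before birth was smallest without gd16 replicate 9 (52 genes). The class across birth and the class of both steps were smallest without gd18 replicate 6 (20 and 10 genes).

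Examples of the first kind, with the larger part before birth, were Cp (2.35 log2 to gd18, then 0.71), Sult1e1 (3.02, then 0.69), Maob (2.09, then 0.40), Hbb-y (-5.68, then -1.13) and Amhr2 (-2.07, then -0.44). Examples called only across birth were Spink12 (0.75, then 2.65), Npy6r (0.89, then 2.58), Ccn3 (0.92, then 2.23), Ntsr1 (-1.12, then -2.19), Ldha (0.20, then -1.19) and Prmt8 (-0.07, then -1.90). Defb29 (2.82, then 2.21), Pzp (2.22, then 2.75), Mfap5 (1.89, then 1.67) and Hmga2 (-1.84, then -1.17) passed in both. The second value of each pair leaves out replicate 3. A gene called in one step and not in the other is not shown by that to differ between them. Tested directly, the steps differed for 6 of the 543.

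**Figure D4:**
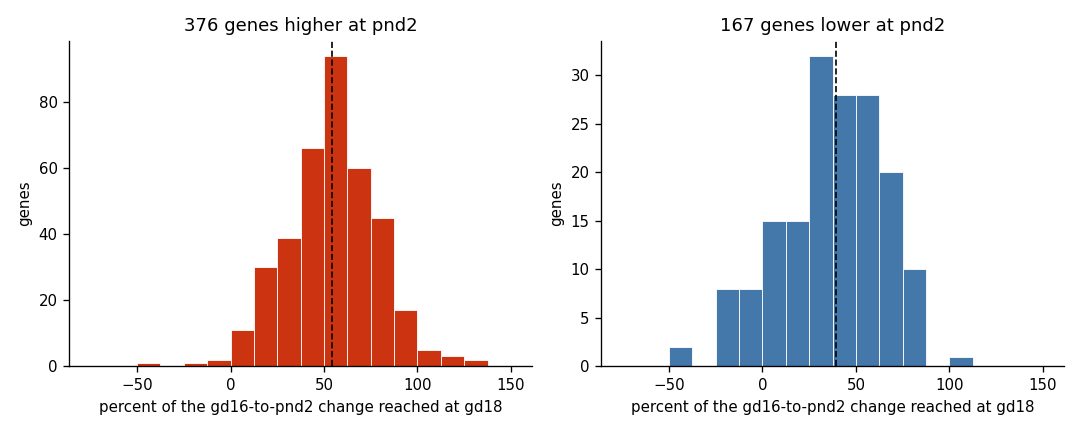
Number of genes by the percent of their log2 change from gd16 to pnd2 that was reached at gd18, computed without pnd2 replicate 3, for the 376 rises (left) and 167 falls (right) called with all 9 arrays; dashed lines are the medians, 54.2% and 39.2%. Values below 0 are genes whose gd18 mean lay on the far side of the gd16 mean from pnd2, by however little. Values beyond the outermost bars are counted in them.

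The test of unequal steps called 13 genes without replicate 3, 11 with the second step lower than the first and 2 with it higher; with 9 arrays limma called 0, with 405 at an unadjusted p below 0.05. Adm read 457, 336 and 315 at gd16, 2788, 2008 and 3538 at gd18 and 1713, 1682 and 1609 at pnd2. Its highest stage was gd18. The second step minus the first was -3.51 ± 0.36 (adjusted p = 0.00752), and its rise from gd16 to pnd2 was 2.15 ± 0.24, adjusted p = 0.00227; a second probe set for it gave a rise of 0.62. Stc2, stanniocalcin 2, a secreted glycoprotein, read 570.2, 719.7 and 635 at gd16, 1689, 1519 and 2293 at gd18 and 769, 793 and 212 at pnd2, so that gd18 stood above both (step difference -2.67 ± 0.29, adjusted p = 0.00752). Pdk1, the kinase that holds pyruvate out of the citric acid cycle, read 1565, 1256 and 1809.9 at gd16, 2778, 2351 and 1877 at gd18 and 821, 921 and 2236 at pnd2. Replicate 3 disagreed with both other pnd2 arrays there. Ppp1r3c, a glycogen-targeting subunit of protein phosphatase 1, read 4082, 5226 and 3841 at gd16, 5163, 5313 and 7337 at gd18 and 2285, 1989 and 1117 at pnd2 (step difference -1.88 ± 0.28, adjusted p = 0.0399). Ankrd37, Flt1, Scd1 and Ccn2 were likewise lower on the first 2 pnd2 arrays than on any gd18 array. Socs2, Aspn and Eps8 had risen by 2.28, 1.65 and 1.67 by gd18, and their second steps were 0.00, 0.07 and -0.32. Angptl4, an inhibitor of lipoprotein lipase, was lowest at gd18, with 429.6, 434 and 349 at gd16, 253, 219 and 226 at gd18 and 629, 872 and 619 at pnd2 (step difference 2.36 ± 0.32, adjusted p = 0.0254), and so was Nacc1, with 237, 161 and 296 at gd16, 64.8, 69.8 and 100.3 at gd18 and 321, 444 and 144 at pnd2.

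**Figure D5:**
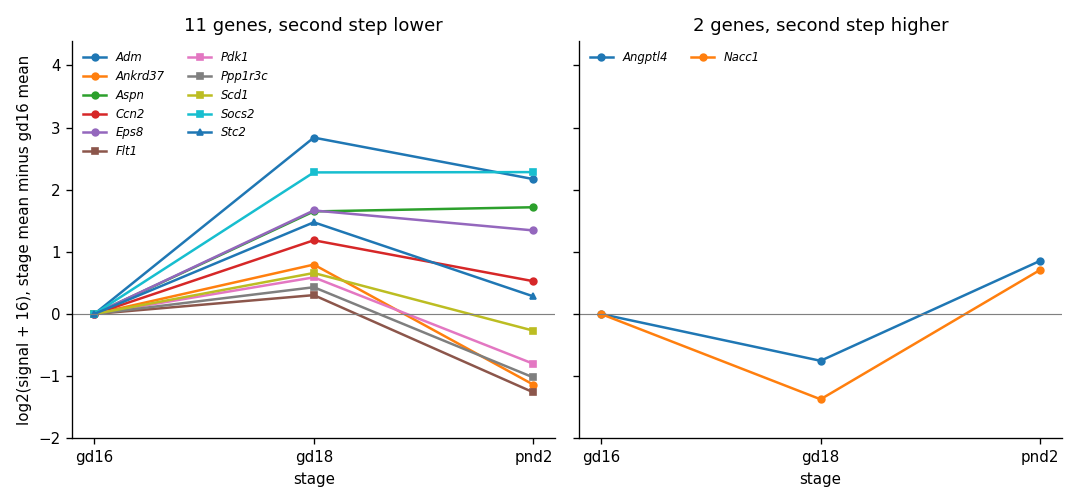
Mean log2(signal + 16) of each stage minus the gd16 mean for the 13 genes whose steps from gd16 to gd18 and from gd18 to pnd2 differed, with pnd2 taken without replicate 3. In 11 genes (left) the second step is lower than the first, with Adm and Stc2 highest at gd18; Angptl4 and Nacc1 (right) are lowest at gd18.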

How the data were processed

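Arrays of 9 epididymis samples at gd16, gd18 and pnd2 were used, 3 a stage. The deposited values are intensities (signals), linear, 1 for every probe set on an array, made with GCOS per the submitters' processing notes; the signal algorithm is not given in the sources used here. Trimmed means of 499.9 to 500 were found on every array.

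Of 45101 probe sets, 34958 had 1 gene symbol in GEO's platform annotation, 932 several and 9160 none listed; 34754 matched RefSeq (GRCm38.p6). Probe sets at or above the array median on at least 3 of the 9 arrays were kept (20299 with 1 symbol), and the brightest stood for each of 11580 genes. limma 3.58.1 in R 4.3.3 fitted 1 mean per stage to log2(signal + 16) with an intensity trend; adjusted p is Benjamini-Hochberg over all genes. The script was checked on simulated data.

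Gd12 and gd14 samples were left out because their labels give pools of 3 animals. The design text describes single animals at every stage, and p-values measure the spread between these animals. The genes described and the 52 gene lists were chosen with earlier results of these data known. Named genes were called with and without pnd2 replicate 3, had separate arrays and a level above the array medians, and were the 14 largest rises and falls, up to 5 of each timing class and direction, and members of the lists. Alternatives changed the arrays, scaling, constant, filter, probe set rule, trend, weights and threshold.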

Additional observations from a re-analysis of the deposited data

How the results depend on the processing

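Of the 35 genes named by rank or timing class, 20 were called under all 23 alternatives and another 6 under the 22 that measured them, and 0 directions reversed. Hbb-b2 lost its call where probe sets prone to cross-hybridise were avoided (adjusted p = 0.796). Called between gd16 and pnd2 (543; 376 higher, 167 lower) were 1370 (845, 525) without pnd2 replicate 3 and gd16 replicate 9, 516 of them among the 543, and 125 (98, 27) with only the 6 arrays compared. They were 1208 (759, 449) with all 15 epididymis arrays, 2022 (1241, 781) with array weights and 121 (97, 24) at an adjusted p below 0.01. Lower calls were 87 with median centring and 108 with no filter. Leaving out single replicates gave 148 to 1893 (122 to 1158 higher, 26 to 735 lower).

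Calls between gd16 and gd18 (14) were 131 without both arrays, 252 with only the arrays compared, 43 with 15 arrays, 450 with weights and 1 at 0.01. They were 26 with quantile normalization, 9 with a constant of 1 and 8 with no filter, and 0 to 325 over single replicates. Calls between gd18 and pnd2 (0) were 204 without both arrays, 75 with 15 arrays, 421 with weights, 9 with quantile normalization or no trend, 5 with median centring, 4 with a constant of 64, 2 with probe sets averaged, and 0 to 267 over single replicates. Unequal steps (0) numbered 5 without both arrays, 28 with weights, and 0 to 13 over single replicates.

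Timing classes (154 before, 91 after, 34 both) were 101, 159 and 21 without both arrays. They were 49 and 21 for the first 2 classes with only the arrays compared, and 20 genes passed both steps with 15 arrays. They were 52 after and 22 both with no filter, 95, 28 and 6 with no trend, 271 and 218 before and after with weights, and 44, 7 and 7 at 0.01. Over single replicates they ran from 52 to 252, 11 to 201 and 1 to 37. The cause of these shifts was not tested.

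Median log2 differences changed sign with the scaling or with pnd2 replicate 3 for 16 of the 52 lists, among those described above the androgen response, ciliated cell, luminal transport, growth axis, macrophage, nerve and Wolffian duct lists. No paired analysis was possible because the replicate numbers run through the series and no stages share one. Signals near the floor of an array, as for Hbb-y at pnd2 or Pzp at gd16, limit how far a fold can be read.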

Other observations

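Immune and housekeeping groups not described above also held called genes. Of 20 measured histocompatibility and interferon response genes 3 rose and 1 fell with 9 arrays, and 11 and 1 without pnd2 replicate 3, at medians of 0.77 and 0.78 log2. Ifitm3, an interferon-induced membrane protein, read 1851, 1282 and 1369 at gd16, 2438, 2736 and 3044 at gd18 and 3515, 4148 and 8729.8 at pnd2, without overlap (1.75 ± 0.32, adjusted p = 0.0184 by limma). H2-K1, a class I histocompatibility heavy chain, read 611, 532 and 285 at gd16, 1920.3, 1117 and 873 at gd18 and 1624, 1348 and 819 at pnd2 and was called only without replicate 3, at 1.67 with an adjusted p of 0.00688. Rsad2, an interferon-induced antiviral enzyme, fell from 1555, 1339 and 1137 to 443, 271 and 213 (-2.12 ± 0.41, adjusted p = 0.0223). Of 16 complement genes 2 rose, C2 by 2.24 ± 0.40 and Serping1 by 0.92 ± 0.20, and 0 fell, with 3 higher and 1 lower without replicate 3. Macrophage markers did not separate the stages, with a summed signal over 5 of 6738.48 to 7454.65 at gd16, 6002.18 to 7130.14 at gd18 and 6629.84 to 10283.51 at pnd2. Csf1r was the largest part of each sum.

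Of 39 measured cytosolic ribosomal protein genes 1 was called with 9 arrays and 13 were higher and 2 lower without replicate 3. The 3 pnd2 arrays lay above the 3 gd16 arrays for 24 and below for 1, against 15.6% and 13.2% of all genes. With quantile normalization 5 were higher and 2 lower without replicate 3, and with arrays centred on their medians 17 and 2. Nr1d2, a repressor of the circadian clock, was the called gene of 17 clock genes in both fits and read 673, 604 and 817 at gd16, 838, 711 and 564 at gd18 and 1834, 1585 and 4454 at pnd2 (1.74 ± 0.36, adjusted p = 0.0313). The hour of each dissection is unknown here. Hmgcs1, of cholesterol synthesis, rose by 1.01 ± 0.23, and 1 of 21 genes of that pathway was called (2 without replicate 3); other Hmgcs1 probe sets ran from -0.17 to 0.68. Car3, a carbonic anhydrase abundant in fat and muscle, went from 43.6, 47.0 and 119 at gd16 and 23.2, 35.2 and 31.8 at gd18 to 276, 382 and 1349 at pnd2 (2.76 ± 0.56, adjusted p = 0.0278).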
